A study of Mus musculus with 6 samples.

Results

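The 7 chemokines described here, Cxcl12, Cxcl13, Cxcl14, Cxcl16, Cx3cl1, Ccl25 and Ccl27a, were chosen by name as chemokines that stromal cells make constitutively or that lack the ELR motif. All 7 were found among the 22162 genes of the table, 6 by the name given there and Ccl25 by its Ensembl identifier, since its row carries the older name TECK. They were followed in mouse skin fibroblasts (MSFs), primary cells cultured at 3% oxygen from dorsal skin of a single female FASST mouse of the FVB/N strain. In this mouse a Col1a2 promoter drives a Cre recombinase that is active in the presence of tamoxifen (TAM) and that removes a stop cassette before p27Kip1 and GFP in the ROSA26 locus. 3 MSF samples had been treated with 10 µM TAM for 48 h and were labelled senescent (TAM), and 3 had received ethanol, the vehicle, and were labelled non-senescent (EtOH). Both groups carried the alleles and all 6 libraries were poly(A) RNA. No group had TAM without the alleles, so the drug and the p27Kip1 allele cannot be told apart. The labels give no separate animals for the samples, so the p-values below measure the spread between these samples, which may be technical.

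Chemokines are small secreted proteins that guide migrating leukocytes through G protein-coupled receptors, and most are held on heparan sulfate at the cell surface and in the matrix. The homeostatic ones place cells in resting tissue: CXCL12 retains haematopoietic and lymphoid cells through CXCR4, CXCL13 draws B cells into follicles through CXCR5, CCL25 acts in thymus and small intestine through CCR9, and CCL27 brings T cells to skin through CCR10. CXCL16 and CX3CL1 are made as membrane proteins, bind CXCR6 and CX3CR1, and are released by shedding, whereas CXCL14 is a chemokine of epithelium and stroma.

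Values are normalized counts, and 16.2 of them stand for 1 c.p.m. (counts scaled to library size). The summed values per library lay between 14952367 and 17314953. The fibroblast markers Col1a1, Col1a2, Col3a1, Pdgfra, Pdgfrb, Dcn, Lum, Thy1, Vim and S100a4 all passed the filter on low values described below, led by Col1a1 and Col3a1, with sums of 1538254 to 1684812 in EtOH and 700510 to 1129878 in TAM. Replicates with the same number deviated together, and the replicate 2 pair had the widest spread of log2 differences over all genes, with an SD of 0.995 against 0.757 and 0.772 in the pairs of replicates 1 and 3. Cdkn1b, which encodes p27Kip1, stood at 1427, 3074 and 1853 normalized counts in EtOH 1, 2 and 3 and at 1699, 1520 and 1630 in TAM 1, 2 and 3, and the groups overlapped. Whether transgene reads are counted in that row is not given in the sources used here, so this does not check the labels.

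Some of the sequences behind these values are given first, because they bear on what the counts can separate. Ccl27a (ENSMUSG00000073888, mm9 chr4:41716340-41721120, minus strand) has near-identical copies on the same chromosome, and the coding sequences of the copies Ccl27b, Gm13306 and Gm2506 each differ from that of Ccl27a at 3 of 363 positions and are identical to each other. The stretch from position 284 to 343 of the coding sequence, counted from 1 at its first base, is shown with the positions that differ in capitals.

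Ccl27a: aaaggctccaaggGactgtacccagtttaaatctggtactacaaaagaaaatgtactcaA
Ccl27b: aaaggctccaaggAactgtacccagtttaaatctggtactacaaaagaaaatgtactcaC
Gm13306: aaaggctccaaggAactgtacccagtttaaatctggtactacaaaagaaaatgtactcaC
Gm2506: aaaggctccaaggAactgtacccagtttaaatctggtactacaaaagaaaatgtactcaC

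A BLAST search placed 93.5% of the longest coding transcript of Ccl27a elsewhere in the mm9 genome, in 22 matches of at least 100 bases and 95% identity. The 3 copies are listed at 0 in all 6 libraries, so the Ccl27a row is uncertain as a measure of Ccl27a alone. The longest coding transcripts of the other 6 members had no such match.

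The promoters of 2 members are shown for contrast, that of Cxcl12 as the highest member and that of Cxcl14 as the member whose groups did not overlap. The sequences are the 250 bases before the start in the RefSeq promoter table (GRCm38.p6), each found at a single place on its mm9 chromosome. In the Cxcl12 promoter (mm9 chr6:117118303-117118552, plus strand, 64.4% G and C) the capitals mark the GC box GGGCGG on either strand, with 5 matches, of which the last pair overlap. In the Cxcl14 promoter (mm9 chr13:56397913-56398162, minus strand, 59.6% G and C) they mark the hypoxia response core ACGTG or GCGTG on either strand, with 2 matches.

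Cxcl12 promoter: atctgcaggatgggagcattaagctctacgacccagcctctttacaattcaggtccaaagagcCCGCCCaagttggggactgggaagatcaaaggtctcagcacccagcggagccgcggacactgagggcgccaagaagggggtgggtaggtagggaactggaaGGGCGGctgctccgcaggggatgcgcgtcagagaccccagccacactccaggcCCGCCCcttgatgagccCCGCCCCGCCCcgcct
Cxcl14 promoter: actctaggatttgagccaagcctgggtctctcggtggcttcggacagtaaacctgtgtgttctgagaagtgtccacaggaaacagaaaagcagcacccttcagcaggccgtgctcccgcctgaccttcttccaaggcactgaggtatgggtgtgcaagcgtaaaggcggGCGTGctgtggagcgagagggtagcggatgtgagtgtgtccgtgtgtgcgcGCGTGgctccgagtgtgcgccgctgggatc

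Over 32851 promoter windows of the same length, 32.7% held the GC box and 38.6% held the hypoxia response core, so both are common. The TATA box TATAAA, held by 12.4% of windows, was in the windows of Cxcl13 and Cx3cl1 and in 1 of the 2 windows of Ccl25, and not in those of Cxcl12, Cxcl14 or Ccl27a. The NF-kB consensus, held by 7.25% of windows, had no match in any window of these 6 genes. These are matches of letters and not shown binding sites. The promoter of Cxcl16 was not analysed here.

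The first comparison asked whether TAM-treated MSFs differed from ethanol-treated ones in the messages of these chemokines. Cxcl12 was by far the most abundant member in every library, and none of the 5 members with enough signal for the test across all genes passed it. The member with the widest gap between groups was Cxcl14, a low message that was higher in all 3 TAM libraries but did not pass the test. 5 members (Cxcl12, Cxcl16, Cx3cl1, Ccl25 and Ccl27a) reached 1 c.p.m. in 3 or more libraries and so passed the filter on low values, and Cxcl13 and Cxcl14 did not. Of the 5, 0 were called by limma at an adjusted p under 0.05, where 0.244% of the 11877 genes tested were called in either direction and 0 reached an unadjusted p under 0.05, where 13.4% of genes did. When replicate number entered the model as a block, the count was again 0, against 1.62% of genes. None of the 5 had groups that did not overlap, as 20.6% of all genes tested did.

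**Figure D1:**
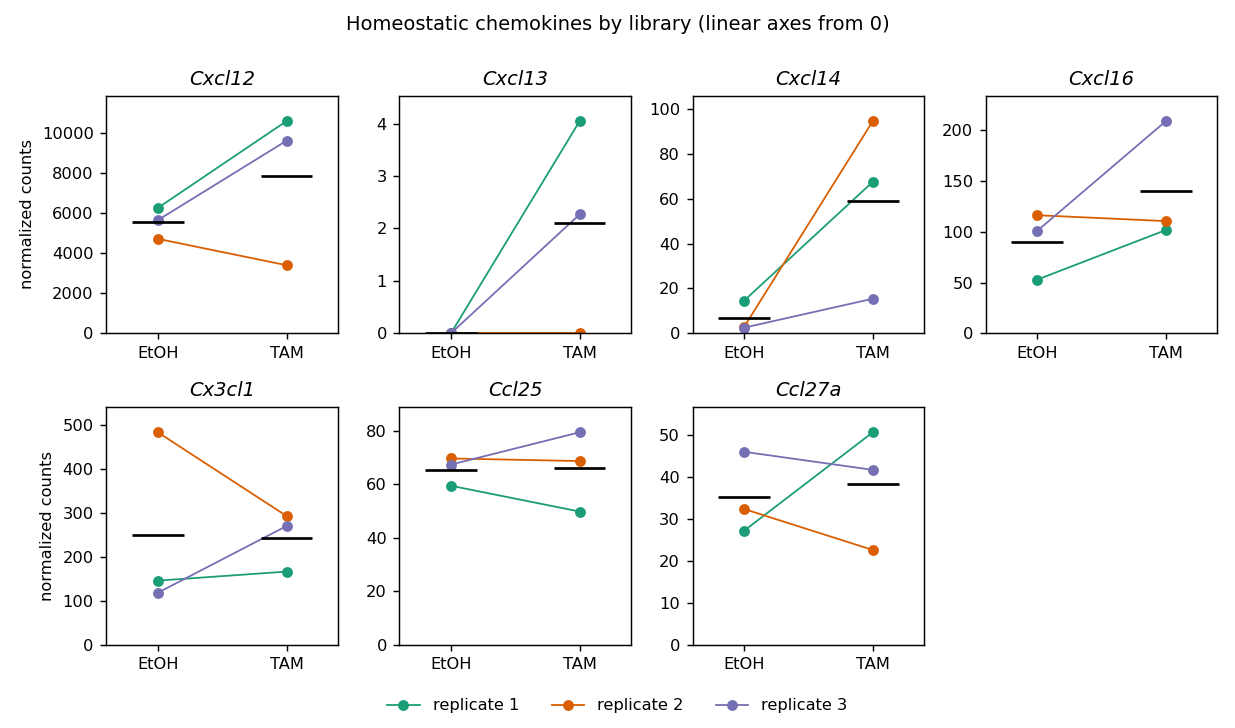
Normalized counts (linear vertical axes from 0, one scale per panel) of the 7 chemokines in the 3 EtOH and 3 TAM libraries. Points are libraries, lines join libraries with the same replicate number, and black bars are group means. Cxcl12 lies between 3393 and 10580 normalized counts, and Cxcl14 is the panel whose groups do not overlap.

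Cxcl12 (ENSMUSG00000061353, mm9 chr6:117118553-117131385, plus strand) stood at 6248, 4709 and 5639 normalized counts in EtOH 1, 2 and 3 and at 10580, 3393 and 9601 in TAM 1, 2 and 3. TAM 1 and TAM 3 were above every EtOH library, and TAM 2 was below every one. The means were 5532 ± 775 in EtOH and 7858 ± 3897 in TAM (SD, n = 3 libraries each). On the log2(value + 1) scale the difference, TAM minus EtOH, was 0.35 (SE 0.43, 95% confidence interval -0.67 to 1.37, limma adjusted p = 0.772). Without TAM 2 it was 0.88 (adjusted p = 0.199 by limma), and without TAM 1 and without TAM 3 it was 0.05 and 0.12. Fibroblast markers summed to 700510 normalized counts in TAM 2, the lowest of the 6 libraries, most of it Col1a1, Col1a2 and Col3a1, while Thy1 (4122) and S100a4 (15706) were higher there than in the other 5. In the same library 6 mural cell markers (3 passed, led by Myh11 and Cspg4, with Kcnj8 at 0) summed to 2429, against 478 to 795 in the other 5. Their part in the Cxcl12 value was not tested. Among the 17333 genes above 0 in any library, 98.3% had a lower mean value than Cxcl12.

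The transmembrane chemokines had overlapping groups and did not pass the test. Cxcl16 (ENSMUSG00000018920) was at 52.9, 116 and 101 normalized counts in EtOH 1, 2 and 3 and at 102, 111 and 209 in TAM 1, 2 and 3. TAM 3 was the highest library and EtOH 1 the lowest, and the groups overlapped, with a log2 difference of 0.63 (SE 0.41, 95% confidence interval -0.33 to 1.60, limma adjusted p = 0.565). Zmynd15, a gene on the opposite strand, covers 18.3% of the exon bases of Cxcl16 and was listed at 10.7 to 49.3 normalized counts. Whether strand was used in counting is not given in the sources used here, so reads in the shared bases could belong to either gene. Cx3cl1 (ENSMUSG00000031778, mm9 chr8:97295909-97306323, plus strand), which encodes fractalkine, was at 145, 483 and 118 normalized counts in EtOH and at 166, 292 and 270 in TAM. EtOH 2 was the highest of the 6 libraries, and the other EtOH libraries were the lowest. The means were 249 ± 203 in EtOH and 243 ± 67.4 in TAM (SD, n = 3 each), and the log2 difference of 0.22 (SE 0.54, 95% confidence interval -1.04 to 1.48, limma adjusted p = 0.897) was opposite in sign to that of the means. It was 0.84 without EtOH 2, -0.02 without EtOH 1 and -0.17 without EtOH 3.

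The CC chemokines were low and close to even. Ccl25 (ENSMUSG00000023235, mm9 chr8:4325210-4360020, plus strand) was at 59.4, 69.7 and 67.4 normalized counts in EtOH and at 49.8, 68.7 and 79.5 in TAM. The lowest and the highest library were both in TAM. The log2 difference was -0.01 (SE 0.28, 95% confidence interval -0.68 to 0.66, limma adjusted p = 0.990), the narrowest interval of the 5 tested members. A further gene model named Ccl25 (ENSMUSG00000055951) shares 99.8% of its exon bases with the first, covers 41.6% of the exon bases of the first, and is listed at 0 in all 6 libraries, so how the reads of the shared exons were assigned could set the Ccl25 level. Ccl27a was at 27.2, 32.4 and 46.1 normalized counts in EtOH and at 50.8, 22.6 and 41.8 in TAM. Again the lowest and the highest library were both in TAM, and the log2 difference was 0.08 (SE 0.42, 95% confidence interval -0.91 to 1.07, limma adjusted p = 0.960). These intervals still hold differences of about the size seen for Cxcl16, so equal levels are not shown.

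Cxcl14 (ENSMUSG00000021508, mm9 chr13:56390008-56397912, minus strand) was at 14.5, 2.80 and 2.50 normalized counts in EtOH 1, 2 and 3 and at 67.6, 94.7 and 15.4 in TAM 1, 2 and 3. Every TAM library lay above every EtOH library, with the lowest TAM value close to the highest EtOH value. The values of EtOH 2 and EtOH 3 are each at the step numbered 3 among the distinct low values of their library, which is within a few reads. The means were 6.61 ± 6.86 in EtOH and 59.2 ± 40.3 in TAM (SD, n = 3 each), a ratio of 8.96. Cxcl14 did not pass the filter, so it was read from the same model over all 17333 genes above 0, where the log2 difference was 3.01 (SE 0.85, 95% confidence interval 1.03 to 4.99, unadjusted p = 0.00826, limma adjusted p = 0.215). With the replicate block the interval was 1.48 to 4.53 and the limma adjusted p = 0.106, in a fit that called 1.18% of genes. The difference within the pairs was 2.14, 4.65 and 2.23 on the log2 scale, higher in TAM in 3 of 3 pairs. In that wider set 9.49% of genes had all TAM libraries above all EtOH libraries, and 0.0981% were called. The exact two-sided permutation test gave p = 0.1, the smallest that 3 against 3 allows. The study tested its counts with edgeR, which is unlike the limma fit used here. Its methods also list a qRT-PCR assay for Cxcl14, whose result is not given in the sources used here.

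Cxcl13 (ENSMUSG00000023078, mm9 chr5:96385945-96390086, plus strand) was listed at 0 in all EtOH libraries and in TAM 2, at 4.05 normalized counts in TAM 1 and at 2.27 in TAM 3. The smallest values above 0 in those 2 libraries were 0.42 and 0.36. The number of reads behind the Cxcl13 values was not resolved, and with EtOH at 0 no fold change is given.

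**Figure D2:**
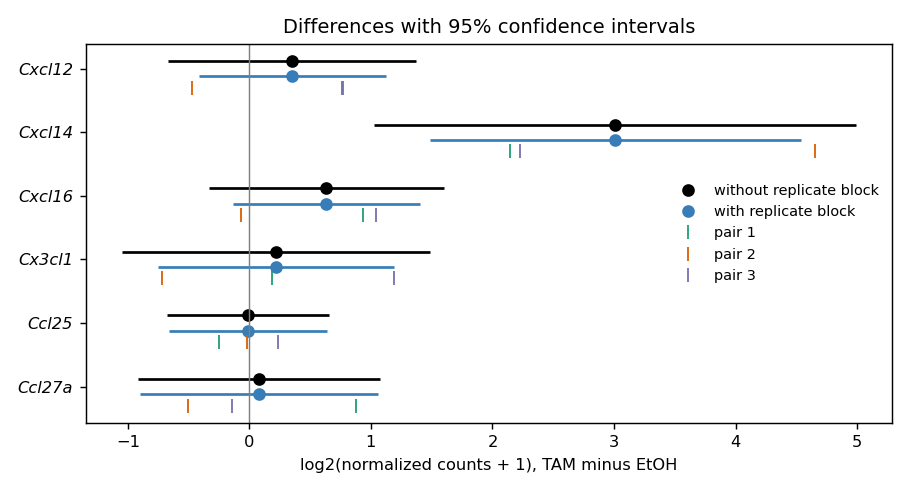
Difference in log2(normalized counts + 1), TAM minus EtOH (horizontal axis), for the 6 members above 0 in both groups. Points and lines are limma estimates with 95% confidence intervals, without (black) and with (blue) the replicate block, and ticks below them are the 3 same-numbered pairs. All intervals except those of Cxcl14, a gene under the filter, hold 0.

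Replicate 2 differed in direction from both other pairs in 3 of the 5 tested members, Cxcl12, Cxcl16 and Cx3cl1. Of the 5, 4 were higher in TAM than in EtOH within pair 1, 0 within pair 2 and 4 within pair 3, where 45.2%, 50.0% and 44.2% of all genes tested were. For Cxcl12 the pair differences were 0.76, -0.47 and 0.77 on the log2 scale, for Cxcl16 0.93, -0.07 and 1.04, and for Cx3cl1 0.19, -0.72 and 1.19. Ccl25 was also lower in TAM within pair 1 (-0.25, -0.02 and 0.24) and Ccl27a within pair 3 (0.88, -0.50 and -0.14). Cxcl14, outside the tested set, had its widest difference in pair 2. None of the 5 was higher in TAM in all 3 pairs, where 18.3% of all genes tested were.

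To compare the members with each other, values were divided by the length of the annotated exons. Cxcl12 was at 415 to 1294 normalized counts per kb over the 6 libraries, Cx3cl1 at 31.7 to 130, Cxcl16 at 17.5 to 69.2, Ccl25 at 18.7 to 29.8, Ccl27a at 9.51 to 21.4, Cxcl14 at 1.37 to 51.9 and Cxcl13 at 0 to 3.45. The range of Cxcl12 did not meet that of any other member. In EtOH the order of the means below it was Cx3cl1 (67.1 normalized counts per kb), Cxcl16 (29.8), Ccl25 (24.5), Ccl27a (14.8), Cxcl14 (3.63) and Cxcl13 (0). There Cx3cl1 overlapped Cxcl16 and Cxcl16 overlapped Ccl25, and the later neighbours did not overlap. In TAM the order was Cx3cl1 (65.4), Cxcl16 (46.5), Cxcl14 (32.5), Ccl25 (24.7), Ccl27a (16.1) and Cxcl13 (1.79), and all neighbours overlapped except Ccl27a and Cxcl13. The order depends on the length taken, since the table lists shorter spans than the annotation for some genes, with 1878 of 8176 exon bases of Cxcl12, 844 of 3708 of Cx3cl1 and 614 of 2377 of Ccl27a inside the listed span. With those lengths Ccl27a moved above Cxcl16 and Ccl25 in the order of means over the 6 libraries, to 59.9 normalized counts per kb against 38.2 and 24.8, while Cxcl12 (3565) and Cx3cl1 (291) stayed highest.

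Cxcl12 made up a smaller part of the chemokine messages in TAM than in EtOH, while its own level did not pass the test above. Over the 39 chemokine genes followed (these 7 and 32 others), the summed level was 2298, 3342 and 1729 normalized counts per kb in EtOH 1, 2 and 3 and 17340, 23590 and 10184 in TAM 1, 2 and 3. Cxcl12 took 33.2%, 17.2% and 39.9% of it in EtOH and 7.46%, 1.76% and 11.5% in TAM. The groups did not overlap in either quantity, with an exact two-sided permutation p = 0.1 for each, the smallest possible. In rank by level per kb, Cxcl12 was at 1, 2 and 1 in EtOH and at 6, 7 and 4 in TAM. All 7 members together took 23.5% to 46.3% in EtOH and 2.62% to 13.5% in TAM. The shares of Cxcl16, Cx3cl1, Ccl25 and Ccl27a were also lower in TAM without overlap. Since the sum was higher in TAM, a share can be lower there without a lower level of the member. The study had already reported higher Ccl2, Ccl5, Cxcl1 and Cxcl5 in senescent MSFs, so the direction of these shares is no independent test. Its methods also list qRT-PCR assays for Ccl7 and Ccl8. Here Ccl5 differed by 1.80 on the log2 scale and was not called (limma adjusted p = 0.256, or 0.088 with the block). With exon bases inside the listed spans the Cxcl12 share was 66.2%, 43.6% and 71.4% in EtOH against 25.7%, 7.15% and 35.4% in TAM, and its rank was 1 in all 3 EtOH libraries against 2, 4 and 1 in TAM. Without division by length the share was 60.6% to 83.9% in EtOH and 14.0% to 55.9% in TAM, and the rank was 1 in every library except TAM 2, where it was 4. The share was lower in TAM on each scale, with a size that depends on the length used, and a lower rank in TAM was not kept. Of the other chemokines, 10 passed the filter, and limma called 1 of them higher without the block (Ccl8, a monocyte attractant, by 3.82 on the log2 scale, adjusted p = 0.0151) and 7 with it, Ccl8 among them. The others were the monocyte and eosinophil attractants Ccl2 (4.46), Ccl7 (2.35) and Ccl11 (2.92) and the neutrophil attractants Cxcl1 (3.82), Cxcl5 (3.68) and Ppbp (3.70), with limma adjusted p between 0.00438 and 0.0420 with the block and between 0.0628 and 0.303 without it. Among these, Cxcl1 and Ppbp had overlapping groups. Ppbp was under 1 c.p.m. in EtOH 1 and EtOH 3 (2.83 and 1.62) and Cxcl1 in EtOH 3 (5.17). Both passed the filter only with TAM libraries counted, so their values are a description. Over all genes tested, limma called 0.244% without the block and 1.62% with it. Ccl5, Ccl9 and Cxcl10, also among the 10, likewise passed only with TAM libraries counted. Of them Ccl5 and Ccl9 were higher in TAM and Cxcl10 was lower (-0.35 on the log2 scale). The median log2 difference over the 10 other chemokines, all of these genes included, was 3.30 and is a description. It was 0.22 over the 5 tested members and -0.03 over all genes tested. That difference between the lists was not tested.

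**Figure D3:**
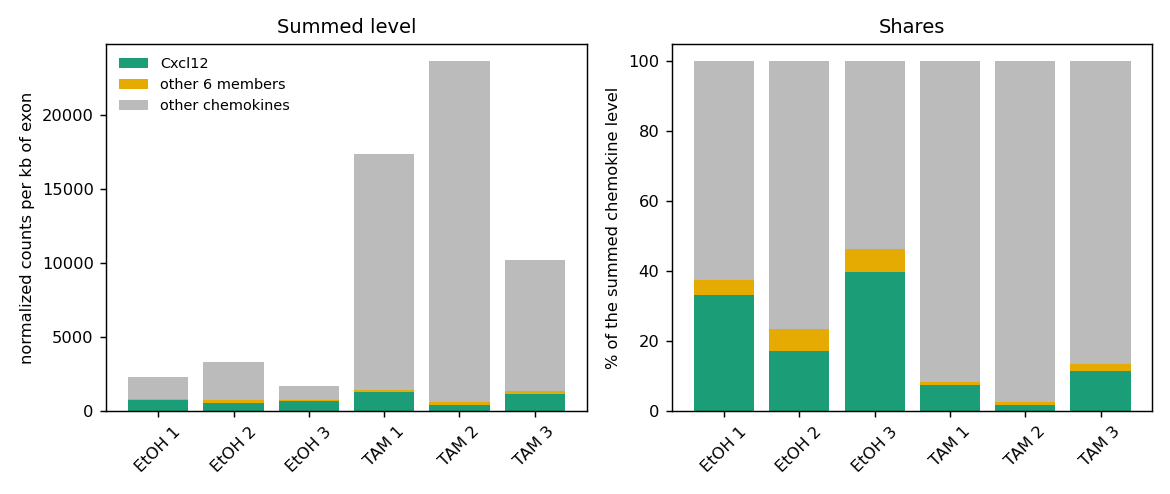
Left, summed level of 39 chemokine genes in normalized counts per kb of annotated exon in each of the 6 libraries, split into Cxcl12, the other 6 members and all others. Right, the same as percentages of the sum, where Cxcl12 takes 17.2% to 39.9% in EtOH and 1.76% to 11.5% in TAM.

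Receptors for these ligands were mostly near 0 in MSFs. Of the 10 receptors 3 passed the filter, Ackr3, Ackr4 and Cxcr5, and limma called 0 with or without the block. The groups of 3 receptors did not overlap. The atypical receptors Ackr3 and Ackr4, which take up chemokines without G protein signalling, were higher in TAM. The signalling receptor Ccr9, under the filter, was lower. Without overlap in either direction were 20.6% of all genes tested. Among genes above 0 in any library, 9.49% were higher and 8.74% lower without overlap. Ackr3 (Cxcr7 in the table), which scavenges CXCL12, was at 536, 439 and 212 normalized counts in EtOH and at 891, 686 and 713 in TAM. On the log2 scale it differed by 1.04 (SE 0.35, adjusted p = 0.272 by limma, or 0.159 when blocked), and it was 0.64 without EtOH 3. Ackr4 (Ccrl1 in the table), which scavenges CCL19, CCL21 and CCL25, was at 15.4, 6.61 and 14.0 in EtOH and at 108, 29.3 and 34.5 in TAM. All EtOH values of Ackr4 were under 1 c.p.m. and all TAM values above it, so it passed the filter through the TAM libraries alone and its values are a description. The log2 difference of Ackr4 was 1.99 (SE 0.61, adjusted p = 0.247 by limma, or 0.116 when blocked), with TAM 1 well above the other libraries.

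The signalling receptors were low. Cxcr4, the receptor through which CXCL12 signals, was at 0 to 1.60 normalized counts in the 6 libraries, within a few reads. Cxcr5, the receptor of CXCL13, passed the filter narrowly at 11.7 to 24.8, and its groups overlapped. Cxcr6, the receptor of CXCL16, was at 2.09 to 10.5 in EtOH and at 6.46 and 8.44 in TAM 1 and TAM 3, but at 136 in TAM 2. That single library carries the TAM mean of Cxcr6. Cx3cr1 lay between 5.49 and 34.5 with overlapping groups. Ccr9, the receptor of CCL25, was at 7.13, 4.76 and 13.6 in EtOH and at 1.27, 2.50 and 1.95 in TAM, without overlap, as 8.74% of genes above 0 in any library were on that side, but it was under the filter and not called in the model over all genes above 0 (limma adjusted p = 0.238). Ccr10, the receptor of CCL27, was at 6.65 to 12.4, and the atypical receptors Ackr1 and Ackr2, which bind inflammatory chemokines, were at 0.67 to 4.68 and 0.57 to 8.42.

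**Figure D4:**
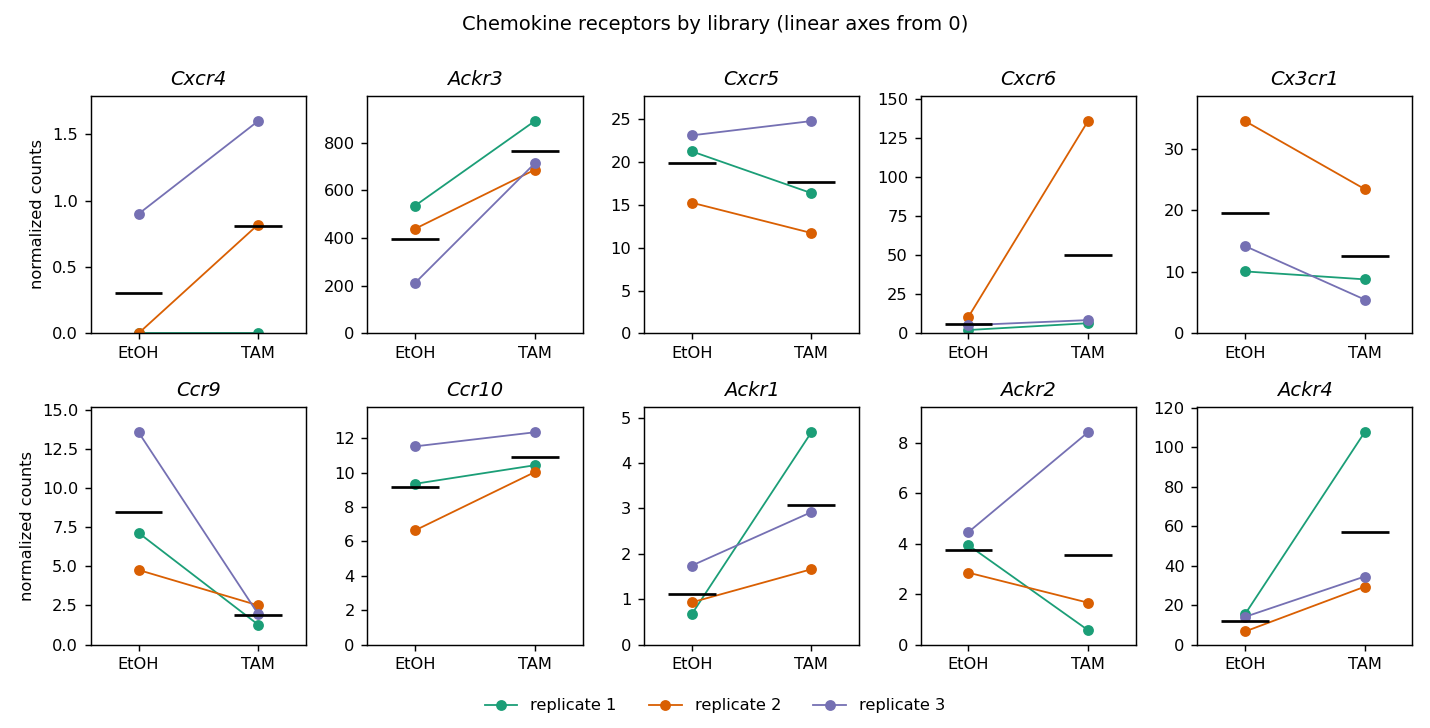
Normalized counts (linear vertical axes from 0, one scale per panel) of 10 chemokine receptors in the 3 EtOH and 3 TAM libraries, drawn as in the plot of the 7 chemokines. Ackr3 lies between 212 and 891, the highest of the 10, and Cxcr6 has 1 high library, TAM 2 at 136.

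Several of the enzymes that cut these ligands were abundant, and none passed the test. Of 8 genes 5 passed the filter, and limma called 0 with or without the block. Dpp4, which removes the N-terminal dipeptide of CXCL12, was at 305, 82.0 and 359 normalized counts in EtOH and at 262, 16.7 and 127 in TAM. It was lower in TAM in every pair, and the share of all genes on that side was not computed. Its log2 difference was -1.31 (SE 1.02, adjusted p = 0.629 by limma, or 0.217 when blocked), -0.19 without TAM 2 and -2.14 without TAM 1, with overlapping groups and both replicate 2 libraries lowest in their group. The sheddases of CX3CL1 and CXCL16, Adam10 and Adam17, were at 1232 to 2507 and 878 to 1920, with log2 differences of 0.10 and -0.16. That of Adam17 was 0.11 without EtOH 2, 0.04 without TAM 2 and 0.24 with library weights, so its sign is not fixed. Mmp2, a gelatinase that also cuts CXCL12, was at 15010 to 30887, and the cathepsin Ctsk at 5858 to 6537. Ctss and Cpn1 were at 0 to 3.34, and Ctsg was listed at 0 in all libraries.

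Of 19 genes of heparan sulfate, which holds chemokines at the cell surface, 18 passed the filter. Among all genes tested, limma called 0.244% without the block and 1.62% with it. Of this list it called 0 without the block and 3 with it, all higher. These were Gpc1, a glypican core protein (2.16 on the log2 scale, adjusted p = 0.091 without and 0.027 with the block by limma), the sulfotransferase Hs6st1 (1.17, adjusted p = 0.293 and 0.042 by limma) and the sulfatase Sulf1 (1.37, adjusted p = 0.091 and 0.042 by limma). Hspg2, the perlecan core protein and the most abundant of the list, was at 53813 to 70316 in EtOH and at 26441 to 31579 in TAM, with a log2 difference of -1.03 (adjusted p = 0.183 by limma, or 0.147 when blocked). The second in abundance, Sdc2, had overlapping groups. The median difference of the list was 0.18 on the log2 scale.

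Of 15 genes known to act upstream of Cxcl12 and its relatives, 12 passed the filter. With the block limma called Epas1, a hypoxia-inducible transcription factor, higher (2.78 on the log2 scale, adjusted p = 0.063 without and 0.027 with the block), and without the block it called 0 of the list. Over all genes tested, 1.62% were called with the block and 0.244% without it. The 2 highest of the list in mean value were Hif1a and Tnfrsf1a. Hif1a, a further hypoxia-inducible factor, was at 2716 to 3161 in EtOH and at 3486 to 3784 in TAM (log2 difference 0.32, limma adjusted p = 0.437), and the groups of Tnfrsf1a, a TNF receptor, overlapped. The median difference was 0.30.

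Genes with the profile over the 6 libraries most like that of a member were found by the root mean square difference of log2(value + 1) after each gene's mean was removed. For Cxcl12 they were Cys1 (0.15), Setbp1 (0.16) and Dnahc6 (0.18), all lower in TAM 2 than in TAM 1 and TAM 3. For Cx3cl1 they were Osbpl10 (0.17), Layn (0.19) and Ptges (0.20), all highest in EtOH 2. For Cxcl16 they were Fmod (0.19), Spint2 (0.21) and AK044623 (0.22). The closest for the flat profile of Ccl25 were Serinc1 (0.048), Rnf181 (0.071) and Ccdc107 (0.072), and for Ccl27a Cep97 (0.045), Lsr (0.087) and E330020D12Rik (0.11). With 6 libraries and 11877 genes such neighbours are descriptions.

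Markers of other cells that can make or answer these chemokines were looked at in the same table. Of 10 macrophage markers 5 passed the filter, with sums of 215 to 553 normalized counts in EtOH and 397 to 570 in TAM, the highest being Cd68 and Csf1r, and Adgre1 was at 0. Cd68 was at 352 in EtOH 2 and at 49.6 to 116 in the other libraries. The groups of 4 macrophage markers did not overlap and were higher in TAM, Csf1r (73.4 to 75.7 against 90.6 to 226) and Lyz2 (35.3 to 62.9 against 103 to 159, log2 difference 1.48, limma adjusted p = 0.141) and, under the filter, Itgam and Mrc1. Over all genes above 0 in any library, 9.49% lay on that side without overlap. Among the 5 tested, Cd68 and Aif1 went the other way, with log2 differences of -0.59 and -0.26 and overlapping groups. The median difference over the 5 tested was 0.82 on the log2 scale, and 0 were called with or without the block. Of 8 lymphocyte markers 0 passed, with Cd3e, Cd3g and Ncr1 at 0 and sums of 3.53 to 16.5, the highest being Cd8a and Cd79a. Of 10 markers of keratinocytes, the cells best known for CCL27, 2 passed, Krt10 and Trp63. The sums were 81.1 to 92.2 in EtOH and 67.2 to 131 in TAM, the highest being Krt10 and, under the filter, Dsp, and Krt1 was at 0. Trp63, which passed through the EtOH libraries alone, was at 24.85 to 25.78 in EtOH and 2.50 to 7.15 in TAM. Krt5, under the filter, went the other way, at 0 to 0.64 in EtOH and 2.96 to 13.39 in TAM. Of 8 endothelial markers 1 passed, the highest being Kdr and Tek, and the sums were 107 to 247 in EtOH and 28.2 to 50.9 in TAM. Kdr, the passing gene, was at 68.7 to 205 in EtOH and 4.84 to 14.0 in TAM and carried most of the gap in the sums. It passed the filter through the EtOH libraries alone, so its values are a description. Its log2 difference was -3.71 (limma adjusted p = 0.049 with the block and 0.061 without it). Vwf, under the filter, went the other way, at 0.55 to 6.65 in EtOH and 8.36 to 10.1 in TAM. The sums of 6 melanocyte markers, led by Pmel and Tyr, were 134 to 255 in EtOH and 141 to 190 in TAM. The part of these cells in the values above was not tested. In bulk RNA fewer cells of a type and less RNA per cell cannot be told apart.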

How the data were processed

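The assay was poly(A) RNA sequencing of 6 MSF samples. Per the study's methods, the authors used TopHat for mapping to mm9, htseq-count for gene counts and edgeR with TMM for differential expression, and versions are not given in the sources used here. The signal the authors deposited is 1 normalized count for each gene in each library, and its scaling is not stated. The values are not whole, so limma 3.58.1 in R 4.3.3 was used in place of a count test, on log2(value + 1) with limma's trend option. Genes entered if 3 or more of the 6 libraries reached 1 c.p.m., and those whose p, adjusted by the Benjamini-Hochberg method, was under 0.05 were called. A fold change on this scale understates that of low genes. Read depth is unknown, so no counting intervals were computed. Members under the filter were read from the same model over all genes above 0 in any library.

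Libraries were grouped by their labels. Same-numbered EtOH and TAM libraries deviated together from their group means (r = 0.24, 0.29 and 0.42 over genes, against -0.31 to 0.04 for different numbers), so the numbers were taken as pairs and the replicate block was fitted too. The pairing comes from the replicate numbers and this check, since no source used here states a shared batch. The members and lists were chosen with earlier results of these data known. The text names all members, every receptor and processing gene above 0, and of the other lists the genes called with or without the block plus the 2 highest in mean value, and the 3 genes most like each tested member. Ccl5, which the study reported, and Ccl9 and Cxcl10, for how they passed the filter, are named as well. Exon lengths came from the mm9 annotation, sequence matches from BLAST 2.17.0. The fit was tested on simulated data with the same set spread for every gene and changes in well-expressed genes only. That test does not cover low members or members with a wide spread. Other filters, pseudocounts, scalings, library weights and leaving out each library were tried. The result of 1 further gene of the upstream list is not reported here.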

Additional observations from a re-analysis of the deposited data

How the results depend on the processing

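The 14 alternatives were 2 filters, 2 pseudocounts, 2 scalings, the replicate block, library weights and each library left out. None of the 5 tested members was called under any of them. Cxcl14 was not called under the 12 that could be run for it, which are those other than the 2 filters. Cxcl12 (0.05 to 0.88), Cxcl16 (0.29 to 1.21) and Cxcl14 (1.91 to 3.78, adjusted p from 0.106 to 0.580 by limma) kept their sign throughout, and library weights gave Cxcl16 its lowest adjusted p of 0.0941 by limma. Leaving out 1 library turned the sign of Cx3cl1 (range -0.17 to 0.84), Ccl25 (-0.16 to 0.17) and Ccl27a (-0.16 to 0.41), and Ccl25 was also positive with libraries scaled to the same sum (0.10), median-ratio scaling (0.0064) and library weights (0.18). Scaling to the same sum moved the median of all genes from -0.03 to 0.08. The causes were not tested.

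The count of genes called, 29, was 17 without a filter, 18 under a minimum of 10 across all libraries, 742 with library weights and 0 to 15 with a library left out, where fewer samples enter the fit. With the replicate block, for the pairing by number, 192 genes were called, and among the genes named the block changed the calls given beside them and no other call. Cxcl13 has no alternatives, since EtOH is listed at 0, and Cxcl14 none under the minimum of 10 across all libraries, which it does not reach. The gap in the Cxcl12 share, TAM minus EtOH, was -23.2 percentage points per kb of annotated exon, -37.6 with listed spans and -37.4 without division by length, alternatives chosen after seeing the data. With 3 libraries a group, differences under about 1 on the log2 scale lay within most intervals.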
